A study of Mus musculus with 16 samples.

Results

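The 10 genes described here are inflammatory cytokine genes and Ptgs2, a prostaglandin synthase gene, reported as targets of the RNA-binding protein tristetraprolin (TTP, gene Zfp36), together with feedback inhibitors of cytokine and NF-kB signalling. They were taken from the table of read counts by their symbols: Tnf, Il1b, Il6, Il10, Il23a, Csf2, Ptgs2, Il1rn, Nfkbia and Tnfaip3, 10 of 24964 gene symbols. Of the 10, 6 had enough reads to be tested (Tnf, Il1b, Ptgs2, Il1rn, Nfkbia and Tnfaip3), and 4 were too low to read (Il6, Il10, Il23a and Csf2).

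The stomachs were sampled in 16 libraries, 4 a group, all from female mice aged 8 weeks. RNA came from a punch of corpus tissue of 4 mm at the lesser curvature. WT-S and WT-A were C57BL/6 mice with normal Zfp36, and TTP-S and TTP-A were congenic C57BL/6 mice carrying the TTPΔARE allele, in which the AU-rich element of the Zfp36 transcript is deleted. A stands for adrenalectomy, removal of the adrenal glands and with them the main source of glucocorticoids, and the label gives gastric inflammation as its result. The treatment label of the S libraries names spasmolytic polypeptide-expressing metaplasia. The labels do not spell out the letter S or say whether those mice had an operation, so S is used as a group name only. The labels name no Cre driver or promoter that would limit the allele to a cell type. They do not say that each library came from its own mouse, so p-values measure the spread between these libraries, which may be technical.

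TTP binds AU-rich elements in the 3′ untranslated region (UTR) of short-lived mRNAs and recruits the machinery that removes the poly(A) tail, so that the mRNA is degraded. Its best known target is the mRNA of tumour necrosis factor, and mice without TTP develop systemic inflammation. TTP also binds its own transcript, and deletion of the element there stabilises that transcript and raises TTP protein throughout the body. In the stomach, prostaglandins made by the cyclooxygenases protect the mucosa, and interleukin 1 signalling restrains acid secretion. Glucocorticoids hold these cytokines down and induce several of the inhibitors.

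The sequence feature that joins most of the genes is the AU-rich heptamer UAUUUAU, the site that TTP prefers, which is written TATTTAT in genome sequence. In the 3′ UTR of the principal transcript of each gene in GENCODE M21 (build GRCm38), TATTTAT was counted with overlapping matches allowed, on the transcript strand. It occurred at least once in 9 of the 10 genes and at least 3 times in 6 of them. Of 19840 coding genes with a 3′ UTR, 26.5% held at least 1 match and 3.81% at least 3. Most of the genes were chosen as reported targets of TTP, so these counts describe the set and are no independent evidence. Csf2, which encodes the growth factor GM-CSF, had 9 matches in 317 bases, and Tnf had 8 in 764 bases. Il23a, a subunit of interleukin 23, had 5, and Il10, the anti-inflammatory interleukin 10, had 4. Ptgs2, the inducible cyclooxygenase that makes prostaglandin precursors, had 6 in a much longer UTR of 2445 bases. Il1b, the inflammatory cytokine interleukin 1 beta, had 3. Nfkbia, which encodes the NF-kB inhibitor I-kappa-B alpha, and Tnfaip3, the ubiquitin-editing inhibitor A20, had 2 each. Il6, interleukin 6, had 1 match and 6 of the shorter pentamer ATTTA. Il1rn, the interleukin 1 receptor antagonist, had neither the heptamer nor the pentamer in 1864 bases. A match describes the letters and does not show binding.

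The stretch with the densest matches is given for 8 of the genes, to show how the clustered elements of Csf2, Tnf, Ptgs2 and Il1b differ from the stretches of Il6, Il10 and Nfkbia, which hold 1 match each. Capitals mark TATTTAT, and sequences run 5′ to 3′ on the transcript strand. In GRCm38 they lie at chr17:35199678-35199706 (minus strand) for Tnf, chr11:54247325-54247353 (minus) for Csf2, chr1:150105790-150105818 (plus) for Ptgs2, chr2:129364802-129364830 (minus) for Il1b and chr10:128296179-128296208 (minus) for Il23a. The others are at chr1:131024385-131024413 (plus) for Il10, chr5:30019728-30019756 (plus) for Il6 and chr12:55489608-55489636 (minus) for Nfkbia. The element in the reference allele of Zfp36, at chr7:28376958-28376987 (minus), is shown because the mutant mice lack that gene's AU-rich element. The ends of the deletion are not given in the labels.
Tnf: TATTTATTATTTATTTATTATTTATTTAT
Csf2: aaaTATTTATTTATTTATTTATTTATttt
Ptgs2: ctgaccaTATTTATTTATTTATgtgaaga
Il1b: ttaccTATTTATTTATgTATTTATtgatt
Il23a: tgatggtTATTTATtcTATTTATaaggaat
Il10: tctctccgaaaTATTTATtacctctgata
Il6: tttatgattgaTATTTATtatttttatga
Nfkbia: ggaccacgtttTATTTATtgtgcttttga
Zfp36: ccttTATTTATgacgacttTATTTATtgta

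Most of these genes are also known to be induced by NF-kB. The kappaB consensus was searched on both strands of RefSeq promoter windows (GRCm38.p6), which run from 250 bases before to 50 after a start site. It was found in a window of 9.55% of 27025 gene symbols. Of the 10 genes, 8 matched a window (Il10 and Il23a were not matched), and 3 of these held the consensus: Il6, Nfkbia and Tnfaip3. The matches are shown in capitals, on the strand of the gene, because 2 of these 3 genes are the NF-kB inhibitors of the set. They lie at chr12:55492661-55492682 (minus) for Nfkbia, chr10:19015407-19015428 (minus) for the Tnfaip3 match nearer the start, and chr5:30013064-30013085 (plus) for Il6. No match says only that the letters are not in the window.
Nfkbia: tggcttGGAAATTCCCcgcgcc
Tnfaip3: tccatcGGAAATCCCCctgttg
Il6: aaatgtGGGATTTTCCcatgag

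Libraries held 17453930 to 25849472 reads counted to genes, so that 1 read of a gene equals 0.0345 to 0.0560 CPM, a unit that divides reads by a TMM-scaled library size. Zfp36 itself had a level of 62.0 ± 4.73 CPM in WT-S, and of 72.0 ± 11.9 CPM in WT-A. Its level was 123 ± 9.54 CPM in TTP-A, and 122 ± 6.11 CPM in TTP-S (mean ± SD, n = 4 in each group here and below). The mutant libraries, from 110 CPM upwards, all lay above the WT libraries, which reached 88.6 CPM. The 5 check genes known to be induced by glucocorticoids summed to 447 to 659 CPM in WT-S against 207 to 243 in WT-A, and to 592 to 765 in TTP-S against 241 to 414 in TTP-A. Parietal cell markers had high levels in every library (sums of 16011 to 24672 CPM). Of these, 4 of 6 were called lower in WT-A than in WT-S, though the sums overlapped and WT-A 4 had the highest of all. Chief cell markers had a median sum of 128562 CPM in WT-S and 60941.5 in WT-A, with overlapping ranges (78569 to 153390 and 48992 to 103711). Of these, 3 of 5 were called lower and 1 higher. Gif is on both the parietal and the chief cell list and is counted among the genes called lower in each. Fibroblast markers summed to 1260 to 1414 CPM in WT-S and 1429 to 2254 in WT-A, with 3 of 6 called higher. Over all genes 18.8% were called in that comparison. The part of this makeup in the WT-A results was not tested. The libraries WT-A 3 and WT-A 4 stood apart. Their deviations from the mean of all libraries rose with the GC content of the transcript (Spearman's rho 0.716 and 0.738 across 11493 genes, against -0.302 to 0.164 in the other 14). Values without them are given below as those of 14 libraries. In bulk tissue, fewer cells of a type and less RNA per cell cannot be told apart.

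Compared per kilobase of exon, the levels spanned more than 2 orders of magnitude between genes. The NF-kB inhibitors were the most abundant, with means over the 16 libraries of 21.5 CPM per kilobase for Nfkbia and 3.01 for Tnfaip3. Ptgs2 (0.923), Il1rn (0.639) and Il1b (0.479) followed on the same scale, with overlapping ranges over the libraries of 0.545 to 1.52, 0.230 to 1.98 and 0.237 to 0.868. The order of these 3 was not fixed. In WT-A Il1rn was at 0.982 ± 0.711 and Ptgs2 at 0.667 ± 0.142 CPM per kilobase, and in WT-S Il1b was at 0.477 ± 0.0664 and Il1rn at 0.283 ± 0.0355. Per kilobase of the longest transcript in place of all exons, Il1rn had a mean of 1.39 and Ptgs2 one of 0.949. Tnf lay at 0.197 CPM per kilobase. Csf2, Il23a, Il10 and Il6 were lowest, at 0.0745, 0.0557, 0.0473 and 0.0385, and their order rests on few reads. The panels of CPM by library show these levels for the tested genes, on a scale of their own for each gene.

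**Figure D1:**
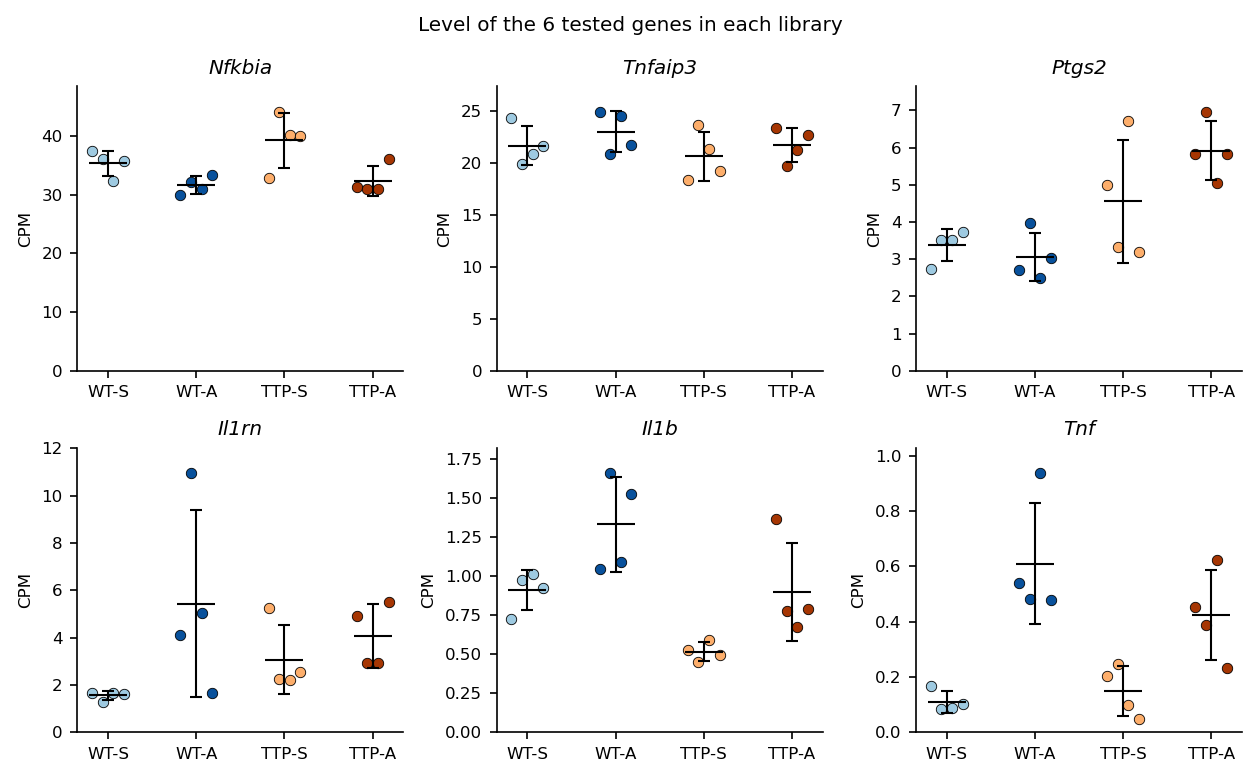
CPM (vertical axes, each starting at 0) of the 6 tested genes in 4 libraries of each of the 4 groups (horizontal axis). Points are libraries, and bars give the mean and SD. The libraries of WT-A lie above those of WT-S for Tnf and Il1b, those of TTP-A above those of WT-A for Ptgs2, and the groups overlap in every comparison for Nfkbia and Tnfaip3.

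Tnf and Il1rn were higher in WT-A than in WT-S, and after adrenalectomy the TTPΔARE mice had more Ptgs2 than WT mice; no other tested gene of the set was called. Tnf was called in every alternative fit, while Il1rn and Ptgs2 each lost the call in some, given below. Called means an adjusted p under 0.05 over all 15385 genes tested. For adrenalectomy in WT mice, 2 of 6 were called (Tnf and Il1rn, both higher), against a background of 18.8% of all genes, and 2 of 6 did not overlap between groups (Tnf and Il1b), against 17.7%. For adrenalectomy in TTPΔARE mice none of 6 was called, against 2.9% of all genes (446 genes; 2440 had an unadjusted p under 0.05), and 1 of 6 did not overlap (Il1b), against 13.7%. Between genotypes in the S groups none of 6 was called, against 0.0325% of all genes (1153 had an unadjusted p under 0.05), and 2 of 6 did not overlap (Il1rn and Il1b), against 6.74%. Between genotypes in the A groups 1 of 6 was called (Ptgs2), against 5.17%, and 1 of 6 did not overlap, against 12.2%. In the test of the difference between the 2 adrenalectomy effects none of 6 was called, against 0.0585% of all genes. The median log2 difference of the 6 genes was 0.31 for adrenalectomy in WT and 0.39 in TTPΔARE mice, 0.29 for genotype in the S groups, -0.25 for genotype in the A groups and -0.068 for the difference of effects. Over all genes the medians lay between -0.0033 and 0.0094. The comparisons share groups and are not independent, and Tnf had to pass the filter through the A groups. The plot of log2 differences sets the 4 comparisons side by side.

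**Figure D2:**
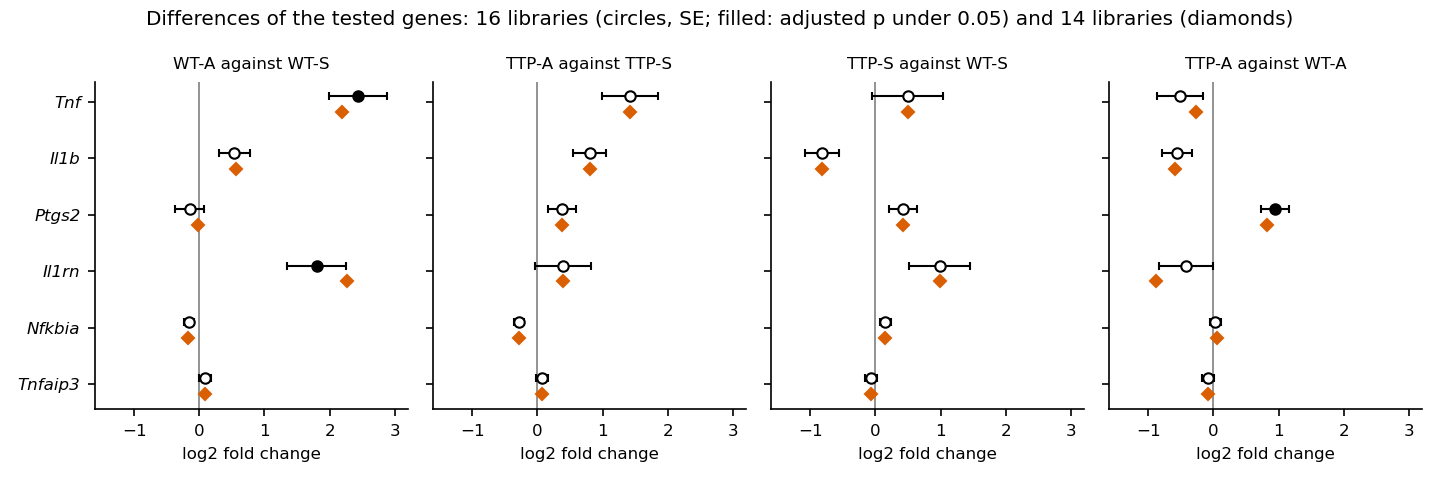
Log2 fold changes (horizontal axis) of the 6 tested genes (vertical axis) in 4 comparisons, from all 16 libraries (circles with SE; filled where the edgeR adjusted p is under 0.05) and from 14 libraries without WT-A 3 and 4 (diamonds). Tnf and Il1rn are filled for WT-A against WT-S, at 2.44 and 1.80, and Ptgs2 for TTP-A against WT-A, at 0.95.

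Of the inflammatory cytokines, Tnf rose with adrenalectomy in WT mice. It was counted at 3, 2, 2 and 2 reads in WT-S 1 to 4 and at 15, 14, 24 and 11 reads in WT-A 1 to 4. In CPM these are 0.168, 0.0848, 0.0880 and 0.102 against 0.541, 0.483, 0.936 and 0.478. Every WT-A library lay above every WT-S library. The summed reads, 64 against 9, gave a ratio of 5.65 relative to library totals (exact conditional 95% interval 2.80 to 12.9, counting error only). In the fit across all genes the log2 difference was 2.44 (SE 0.44, edgeR adjusted p = 0.00337). Without WT-A 3 and 4 it was 2.19 (edgeR adjusted p = 0.0133). Over 17 other settings and left-out libraries the edgeR or DESeq2 adjusted p ranged from 0.00148 to 0.0216.

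In TTPΔARE mice Tnf was counted at 5, 6, 2 and 1 reads in TTP-S and at 10, 8, 13 and 5 in TTP-A. These are 0.203, 0.247, 0.0988 and 0.0492 CPM against 0.454, 0.387, 0.624 and 0.232. TTP-A was the higher group, but its library 4 lay below TTP-S 2. The ratio of the summed reads, 36 against 14, was 2.7 (exact 95% interval 1.42 to 5.43), and the log2 difference of 1.42 (SE 0.43) did not pass the test across all genes (edgeR adjusted p = 0.0899). Between genotypes, the ratio of summed reads was 0.696 in TTP-A relative to WT-A (0.449 to 1.06) and 1.45 in TTP-S relative to WT-S (0.586 to 3.81), with edgeR adjusted p = 0.343 (0.759 in 14 libraries) and 0.95. The effect of adrenalectomy on Tnf was smaller in the mutant by 1.01 on the log2 scale (SE 0.65), which was not called different (edgeR adjusted p = 0.445, and 0.675 in 14 libraries). Tnf passed the filter on low counts through the A groups alone: 4 libraries of WT-A, 2 of TTP-A and none of the S groups reached the filter's minimum.

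Il1b lay higher after adrenalectomy in both genotypes and lower in TTPΔARE than in WT mice, in no case past the test across all genes. It stood at 0.728, 0.975, 1.01 and 0.922 CPM in WT-S and at 1.05, 1.66, 1.09 and 1.52 CPM in WT-A. These groups did not overlap, and the log2 difference was 0.54 (SE 0.23, edgeR adjusted p = 0.110, and 0.57 with 0.216 in 14 libraries). In TTP-S it stood at 0.527, 0.453, 0.593 and 0.492 CPM, and in TTP-A at 1.36, 0.773, 0.672 and 0.787 CPM. Again the groups did not overlap, with a log2 difference of 0.80 (SE 0.26, edgeR adjusted p = 0.111). All 4 TTP-S libraries were below all 4 of WT-S (log2 difference -0.82, SE 0.26, edgeR adjusted p = 0.392). B and plasma cell genes, 6 in all, summed to 0.492 to 0.823 CPM in TTP-S, 1.65 to 9.91 in WT-S and 1.20 to 2.68 in TTP-A, and fibroblast genes to 1618 to 2025 CPM in TTP-S. Neither sum overlapped between TTP-S and WT-S, and their part in Il1b was not tested. TTP-A and WT-A overlapped through the library TTP-A 1 (log2 difference -0.56, edgeR adjusted p = 0.143, and -0.59 with 0.275 in 14 libraries). The reads behind these values numbered 10 to 48 per library. An antisense gene, Il1bos, overlaps Il1b, and the strand setting of the counting is not given, so reads of the pair cannot be told apart.

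Markers of inflammatory cells moved with Tnf and Il1b in part. The summed level of 8 neutrophil genes was 1.23 to 2.18 CPM in WT-S and 2.85 to 6.20 CPM in WT-A, with no overlap, against 17.7% of all genes. Reads of 6 of the 8 were counted in WT-A, while Ly6g and Elane were at 0 there. Most of that sum was Csf3r, the G-CSF receptor, at 2.67 CPM in WT-A and 1.17 in WT-S. Only 2 of the 8 were tested, Csf3r and Retnlg. Both were called higher in WT-A, against 18.8% of all genes, and 1 of them in 14 libraries, against 10.5%. S100a8 and Mpo, of few reads, had lower means in WT-A (0.0991 and 0.00902 CPM) than in WT-S (0.133 and 0.0526). In the mutant the sum was 1.38 to 2.55 CPM (TTP-S) and 1.87 to 3.57 CPM (TTP-A). The 10 macrophage genes, all with counts in every group, summed to 158 to 198 CPM in WT-S libraries, 171 to 267 in those of WT-A, 133 to 188 in those of TTP-S and 179 to 207 in those of TTP-A. In the mutant, 7 T cell genes summed to 4.57 to 6.72 CPM in TTP-S and 7.46 to 8.95 in TTP-A, with no overlap, though none of the 4 tested was called. The 6 mast cell genes did not overlap there either (121 to 130 against 132 to 217 CPM, 1 of 6 called). Most of that sum was Kit, at 91.0 ± 1.23 CPM in TTP-S and 88.5 ± 4.98 in TTP-A. The other 5 lay higher in TTP-A, and Cma1, the gene called, went from 5.51 ± 0.388 to 17.3 ± 6.84 CPM. Over all genes there, 13.7% did not overlap and 2.9% were called. In WT the T cell and mast cell sums overlapped. Called there, against 18.8% of all genes, were 1 of 4 T cell genes, 1 of 6 mast cell genes and 3 of 10 macrophage genes, all higher in WT-A. The part of these cells in the levels of Tnf and Il1b was not tested.

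The other cytokines were too low to read. Il6, which drives the acute phase response, had 34 reads in all 16 libraries, at most 6 in any and 0 in 5 of them. By group WT-S had 10, WT-A 11, TTP-S 2 and TTP-A 11. Il23a, which supports type 17 immune responses, had 47 reads, at most 8 in a library, divided as 5, 20, 13 and 9 in the same order. Il10 and Csf2 had 22 reads each, at most 5 in a library and 0 in 8 of 16 libraries. Il10 was divided as 3, 7, 3 and 9 reads, and Csf2 as 2, 10, 1 and 9. For Csf2 the WT-A reads came from 3 libraries (1, 5 and 4 reads), and 1 of the 4 libraries had none.

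For these 4 genes the counting error alone is wide, and the spread between libraries adds to it. The summed reads of Il23a gave a ratio of 3.18 for WT-A relative to WT-S (exact 95% interval 1.16 to 10.8). Those of Csf2 gave 9.47 for TTP-A relative to TTP-S (1.31 to 415), from 9 reads against 1, and 3.97 for WT-A relative to WT-S (0.847 to 37.3). Those of Il6 gave 5.79 for TTP-A relative to TTP-S (1.26 to 53.7) and 0.187 for TTP-S relative to WT-S (0.0199 to 0.877), both resting on the 2 reads of TTP-S. When all genes with a read were fitted with no filter, none of the 4 was called in any comparison. Il23a in WT-A against WT-S had a log2 difference of 1.57 (edgeR adjusted p = 0.132), Csf2 in TTP-A against TTP-S one of 2.74 (0.402) and Il6 there one of 2.27 (0.421). No difference in these 4 genes was detectable by that fit at this depth. Csf2 overlaps an antisense gene, Gm12223, so its few reads cannot be assigned to a strand. The points of reads per library show Il6, Il10, Il23a and Csf2 beside Tnf.

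**Figure D3:**
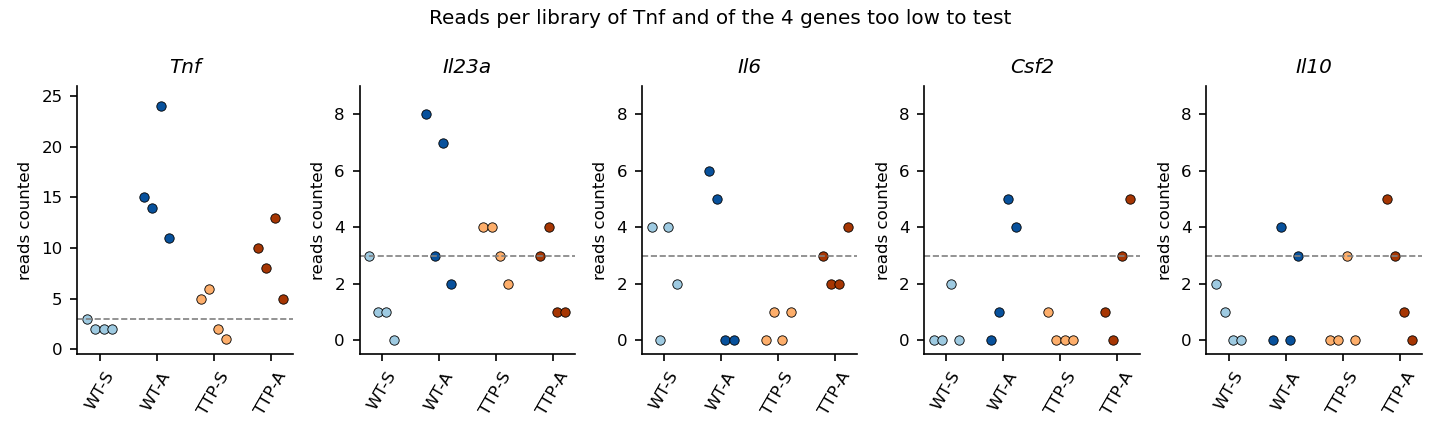
Reads counted (vertical axis; Tnf has a wider scale) in each library of the 4 groups (horizontal axis), 1 panel a gene. The dashed line marks 3 reads; all 4 WT-A libraries of Tnf lie well above it, at 11 to 24 reads, while no library of the other 4 genes exceeds 8.

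Ptgs2 encodes the cyclooxygenase that inflammation induces, also known as COX-2. After adrenalectomy it was higher in TTPΔARE than in WT mice. It stood at 2.71, 3.97, 2.50 and 3.04 CPM in WT-A and at 5.81, 6.96, 5.04 and 5.83 CPM in TTP-A. The groups did not overlap. The log2 difference was 0.95 (SE 0.22, 1.93-fold), which passed the test across all genes (edgeR adjusted p = 0.0271). In the S groups it stood at 2.74, 3.52, 3.52 and 3.74 CPM in WT-S and 4.98, 3.34, 6.72 and 3.2 CPM in TTP-S. These overlapped: 2 mutant libraries were above all WT-S libraries and 2 were within their range (log2 difference 0.43, edgeR adjusted p = 0.708). Adrenalectomy made no called difference to Ptgs2 in WT (log2 difference -0.15, SE 0.22, edgeR adjusted p = 0.656) or in TTPΔARE mice (0.38, edgeR adjusted p = 0.435), and the difference between the 2 effects was not called (edgeR adjusted p = 0.409).

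The call for Ptgs2 depended on which libraries were used. Its transcript has a GC content of 40.0%, in the lowest of 10 equal bins of genes by GC, where WT-A 3 and 4 were shifted by a median of -0.77 on the log2 scale and WT-A 1 and 2 by -0.013. Without WT-A 3 and 4 the log2 difference was 0.82 and was no longer called (edgeR adjusted p = 0.114). The 2 WT-A libraries kept there, at 2.71 and 3.97 CPM, were still below all TTP-A libraries. The call was also lost without WT-A 3 (log2 difference 0.86, edgeR adjusted p = 0.0920), TTP-A 2 (0.86, 0.0671), TTP-A 3 (1.02, 0.0617) or TTP-A 4 (0.96, 0.0591), and in a fit of these 2 groups alone (0.95, 0.0823). That 2-group fit called only 1 of 15385 genes. Markers of gland cells also differed in this comparison. Chief cell genes had a median sum of 115591 CPM in TTP-A against 60941.5 in WT-A, with overlapping ranges (93824 to 143706 and 48992 to 103711). Most of that sum was Pgc, which was not called. Called higher were 2 of 5 chief cell genes (Bhlha15 and Chia1) and 2 of 6 parietal cell genes, against 5.17% of all genes called in either direction. The part of these cells in the Ptgs2 result was not tested.

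Il1rn encodes the secreted antagonist that occupies the interleukin 1 receptor and blocks both forms of interleukin 1. It rose with adrenalectomy in WT mice, from 1.68, 1.27, 1.67 and 1.64 CPM in WT-S to 4.11, 10.9, 5.03 and 1.65 CPM in WT-A. Libraries 1, 2 and 3 of WT-A were well above WT-S, and WT-A 4 lay within its range. The log2 difference was 1.80 (SE 0.45, edgeR adjusted p = 0.0153). Without WT-A 3 and 4 it was 2.27 (edgeR adjusted p = 0.00486). Without WT-A 2 it was 1.21 (edgeR adjusted p = 0.0356), a change of over 1.5 times on the linear scale. Without WT-S 2 it was 1.71 and not called (edgeR adjusted p = 0.0530), nor was it called in a fit of these 2 groups alone (1.80, 0.0690). That 2-group fit called 612 genes in all, against 2891 in the main fit.

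In TTPΔARE mice Il1rn stood at 5.27, 2.26, 2.22 and 2.56 CPM in TTP-S and 4.91, 2.95, 2.93 and 5.51 CPM in TTP-A. These overlapped through TTP-S 1 (log2 difference 0.40, edgeR adjusted p = 0.761). All TTP-S libraries lay above all WT-S libraries, but the log2 difference of 0.98 (SE 0.46) did not pass the test (edgeR adjusted p = 0.666). TTP-A and WT-A overlapped (log2 difference -0.42, edgeR adjusted p = 0.523, and -0.89 with 0.216 in 14 libraries). The effect of adrenalectomy was smaller in the mutant by 1.41 on the log2 scale (SE 0.63), which was not called (edgeR adjusted p = 0.309, and 0.161 in 14 libraries).

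Il1rn is also made by squamous epithelium, which lines the forestomach beside the corpus of the mouse. The summed level of 10 squamous genes, all with counts in every group, ranged from 1.31 to 234 CPM in WT-S and from 51.7 to 1005 in WT-A. It ranged from 28.5 to 466 CPM in TTP-S and from 2.16 to 256 in TTP-A. The highest library of Il1rn in each of WT-A, TTP-S and TTP-A was also the highest of its group in this sum. In WT-S the library with 234 CPM of squamous genes had an Il1rn level of 1.67 CPM, close to those of WT-S 1 and 4. With the squamous level of each library as a covariate, an alternative chosen after the data were seen, the difference of Il1rn between WT-A and WT-S was 0.98 and not called (edgeR adjusted p = 0.160). The same covariate left Tnf called, with 660 genes called in all, against 2891 without it. The scatter of Il1rn against squamous genes shows the 16 libraries.

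**Figure D4:**
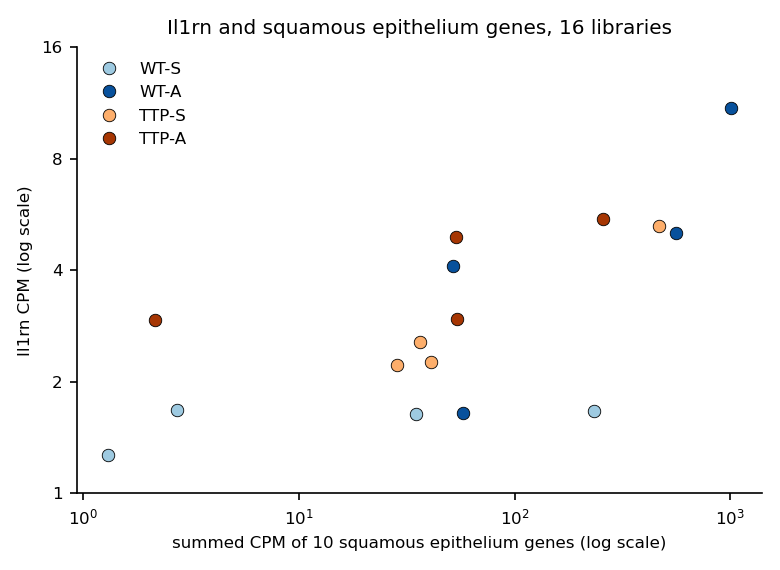
Il1rn CPM (vertical, log scale) against the summed CPM of 10 squamous epithelium genes (horizontal, log scale); each point is 1 of 16 libraries, coloured by group. WT-A 2 is highest on both axes, at 10.9 and 1005 CPM, and WT-S 3 shows a squamous sum of 234 CPM with Il1rn at 1.67 CPM.

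Nfkbia and Tnfaip3 close the negative feedback on NF-kB: the first binds the dimers in the cytoplasm and the second removes the ubiquitin chains that carry the signal. Neither was called in any comparison. Nfkbia stood at 37.3, 36.0, 32.3 and 35.7 CPM in WT-S and 29.95, 32.2, 31.0 and 33.4 CPM in WT-A (log2 difference -0.16, SE 0.083, edgeR adjusted p = 0.172). It stood at 32.8, 44.1, 40.1 and 40.0 CPM in TTP-S and 31.2, 31.0, 30.9 and 36.0 CPM in TTP-A. Thus 3 of 4 TTP-A libraries were below all of TTP-S, and the groups overlapped through TTP-A 4 and TTP-S 1. The log2 difference was -0.28 (SE 0.083, edgeR adjusted p = 0.0818). It was called by the Wald test of DESeq2 (adjusted p = 0.0383) and by edgeR without TTP-S 1 (log2 difference -0.36, edgeR adjusted p = 0.0291). Genotype made no called difference in the S groups (log2 difference 0.15, edgeR adjusted p = 0.743) or the A groups (0.030, edgeR adjusted p = 0.833).

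Tnfaip3 was the steadiest gene of the set. Its group means were 21.7 ± 1.9 CPM in WT-S and, after adrenalectomy, 23.0 ± 2.01 CPM in WT-A. They were 20.6 ± 2.37 CPM in TTP-S against 21.7 ± 1.63 CPM in TTP-A. The 16 libraries lay between 18.3 and 24.9 CPM, and the groups overlapped in all 4 comparisons. The log2 differences lay between -0.083 and 0.089, with SE 0.092 for WT-A against WT-S (edgeR adjusted p = 0.501).

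Other genes of these pathways were taken from 7 lists of ligands, receptors, enzymes and NF-kB components, of which 70 of 79 genes could be tested. For adrenalectomy in WT mice 19 were higher and 5 lower (34.3%, against 18.8% of all genes), and in 14 libraries, 10 and 2 (17.1%, against 10.5%), of which 9 were called in both fits. In TTPΔARE mice 3 were higher and 2 lower (7.14%, against 2.9%), and in 14 libraries, 7 and 5 (17.1%, against 6.33%), which include all 5. None was called between genotypes in the S groups. In the A groups none was higher and 8 lower in the mutant (11.4%, against 5.17%). In 14 libraries none of these 8 was called, and 1 other gene, Ptger3, was called lower (1.43%, against 1.81%). All 8 also lost the call in a fit of the 2 A groups alone (edgeR adjusted p = 0.113 to 0.181), but that fit called only 1 of 15385 genes. Each of the 8 lost it in 2 to 6 of the 8 fits without 1 library. Of the 12 genes with the largest called changes in WT, Csf1r, Il18, Ptgds, Ptger3 and Socs3 lost theirs in a fit of the WT groups alone (0.0711 to 0.116). That fit called 612 genes in all, against 2891 in the main fit. Csf1r, Csf2rb, Il18, Ptgds, Ptger3 and Relb lost theirs with the squamous covariate (0.0598 to 0.244), with which 660 genes were called in all. The plot of pathway genes shows each list for the adrenalectomy comparisons.

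The receptors of the colony-stimulating factors were, of the 7 lists, part of the one with the highest share of calls for adrenalectomy in 16 libraries. In WT mice 4 of 5 tested genes of that list rose with adrenalectomy, against 18.8% of all genes, and 2 of 5 in 14 libraries, against 10.5%. Csf2ra, the alpha chain of the GM-CSF receptor, went from 11.1 ± 0.348 to 20.6 ± 2.75 CPM (log2 difference 0.89, SE 0.13, edgeR adjusted p = 0.00147, and 0.00483 in 14 libraries). Csf2rb, the shared beta chain, went from 8.55 ± 2.97 to 18.5 ± 3.70 CPM (1.12, edgeR adjusted p = 0.0102, and 0.0346 in 14 libraries), though its near-identical copy Csf2rb2 makes its count uncertain. Csf3r, which is also on the neutrophil list, went from 1.17 ± 0.350 to 2.67 ± 0.608 CPM (1.17, edgeR adjusted p = 0.00791, and 0.0667 without WT-A 3 and 4). Csf1r, the macrophage colony-stimulating factor receptor and also on the macrophage list, was called at 0.54 (edgeR adjusted p = 0.0463), but not without WT-A 3 and 4 (0.24, edgeR adjusted p = 0.430).

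In TTPΔARE mice the 2 chains of the GM-CSF receptor also rose with adrenalectomy, 2 of 5 tested genes of the list, against 2.9% of all genes. Csf2ra went from 9.40 ± 0.772 to 13.7 ± 3.18 CPM (0.54), and Csf2rb from 5.87 ± 0.587 to 14.02 ± 5.16 CPM (1.25). Each call was lost when any of 6 of the 8 libraries was left out, with an edgeR adjusted p of up to 0.191 and 0.0981. In the A groups Csf2ra was lower in the mutant (log2 difference -0.59, edgeR adjusted p = 0.0266, and 0.0688 without WT-A 3 and 4). The ligand Csf2 itself, described above, was too low to set beside its receptor.

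Of the prostaglandin list, 2 of 17 genes rose and 1 fell with adrenalectomy in WT mice, and 1 fell in TTPΔARE mice. With 16 libraries the share in WT, 3 of 17, was near the 18.8% of all genes, and in the mutant 2.9% of all genes were called. In 14 libraries 3 rose and 2 fell in WT (29.4%, against 10.5% of all genes), and 2 rose and 2 fell in the mutant (23.5%, against 6.33%). Hpgd, the enzyme that inactivates prostaglandins, was lower after adrenalectomy in both genotypes. It went from 234 ± 34.7 to 120 ± 39.9 CPM in WT (log2 difference -0.96, SE 0.20, edgeR adjusted p = 0.00550; -0.60 without WT-A 3 and 4) and from 274 ± 23.2 to 159 ± 32.0 CPM in the mutant (-0.79, edgeR adjusted p = 0.0427). In the mutant 7 of the 8 single-library omissions ended the call. Ptger3, a receptor of prostaglandin E2, rose from 14.3 ± 1.27 to 21.4 ± 4.77 CPM in WT (0.58, edgeR adjusted p = 0.0107, and 0.82 with 0.00125 in 14 libraries). Ptgds, a prostaglandin D synthase, was called at 0.77 (edgeR adjusted p = 0.0494, and 1.06 with 0.0293 in 14 libraries), and lost the call whichever library was left out.

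Of the interleukin 6 family list, 4 of 9 genes rose and 1 fell with adrenalectomy in WT mice, against 18.8% of all genes. In 14 libraries 2 rose, Lif and Il6st, and none fell (22.2%, against 10.5% of all genes). Lif, leukaemia inhibitory factor, rose from 0.976 ± 0.215 to 2.08 ± 0.291 CPM (log2 difference 1.08, edgeR adjusted p = 0.00533, and 0.0309 without WT-A 3 and 4). Socs3, the feedback inhibitor of this family, was called at 0.47 (edgeR adjusted p = 0.0194), but not without WT-A 3 and 4 (0.36, edgeR adjusted p = 0.0895). In the mutant 1 of 9 genes fell and none rose, against 2.9% of all genes. In 14 libraries 2 fell there, Il6ra and Lifr (22.2%, against 6.33%). The gene called in both fits, Il6ra, the interleukin 6 receptor, went from 17.8 ± 2.83 to 11.7 ± 0.328 CPM (-0.61, edgeR adjusted p = 0.00819). After adrenalectomy Lif was lower in TTPΔARE than in WT mice (-0.77, edgeR adjusted p = 0.0477), and not called without WT-A 3 and 4 (-0.69, edgeR adjusted p = 0.170).

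Of 18 NF-kB components, 5 rose and 2 fell with adrenalectomy in WT mice, against 18.8% of all genes. Without WT-A 3 and 4, however, only Bcl3 was called (5.56%, against 10.5% of all genes). Bcl3, a nuclear partner of NF-kB dimers, rose from 24.0 ± 4.92 to 40.6 ± 5.52 CPM in WT (log2 difference 0.76, edgeR adjusted p = 0.00347) and from 18.6 ± 1.5 to 30.3 ± 4.68 CPM in TTPΔARE mice (0.71, edgeR adjusted p = 0.0182). In the mutant the call was lost in 3 of 8 omissions of 1 library (edgeR adjusted p of up to 0.0787). No other gene of the list was called there, against 2.9% of all genes. Relb, a subunit of the non-canonical pathway, was called at 0.52 in WT (edgeR adjusted p = 0.0121, and 0.0796 without WT-A 3 and 4). In the A groups Relb and Nfkb2 were lower in the mutant, by -0.45 and -0.34 (edgeR adjusted p = 0.0472 and 0.0305), and neither was called without WT-A 3 and 4 (0.205 and 0.163).

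Of the TNF list, 3 of 8 genes rose with adrenalectomy in WT mice, against 18.8% of all genes, and 1 of 8, Tnfrsf1b, in 14 libraries, against 10.5%. None was called in the mutant, against 2.9% of all genes. In the A groups the TNF receptors Tnfrsf1a and Tnfrsf1b and the adaptor Traf2 were lower in TTPΔARE than in WT mice, with log2 differences of -0.27, -0.27 and -0.29. None of the 3 was called without WT-A 3 and 4 (edgeR adjusted p = 0.235, 0.101 and 0.138). Of the interleukin 1 list, 1 of 11 genes rose and 1 fell in WT mice, near the 18.8% of all genes. Myd88, the adaptor of the interleukin 1 receptor, rose (0.29, edgeR adjusted p = 0.00628, and 0.0397 in 14 libraries) and Il18, a cytokine of epithelium, fell. Il18 went from 58.8 ± 5.88 to 34.6 ± 12.2 CPM (-0.76, edgeR adjusted p = 0.0137, and 0.0596 without WT-A 3 and 4). After adrenalectomy Myd88 was lower in the mutant (-0.29, edgeR adjusted p = 0.0195, and 0.0755 without WT-A 3 and 4). Of the interleukin 10 and interleukin 23 list only 2 of 8 genes could be tested and neither was called. Il17a and Il22, cytokines induced by interleukin 23, had no read in any library.

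**Figure D5:**
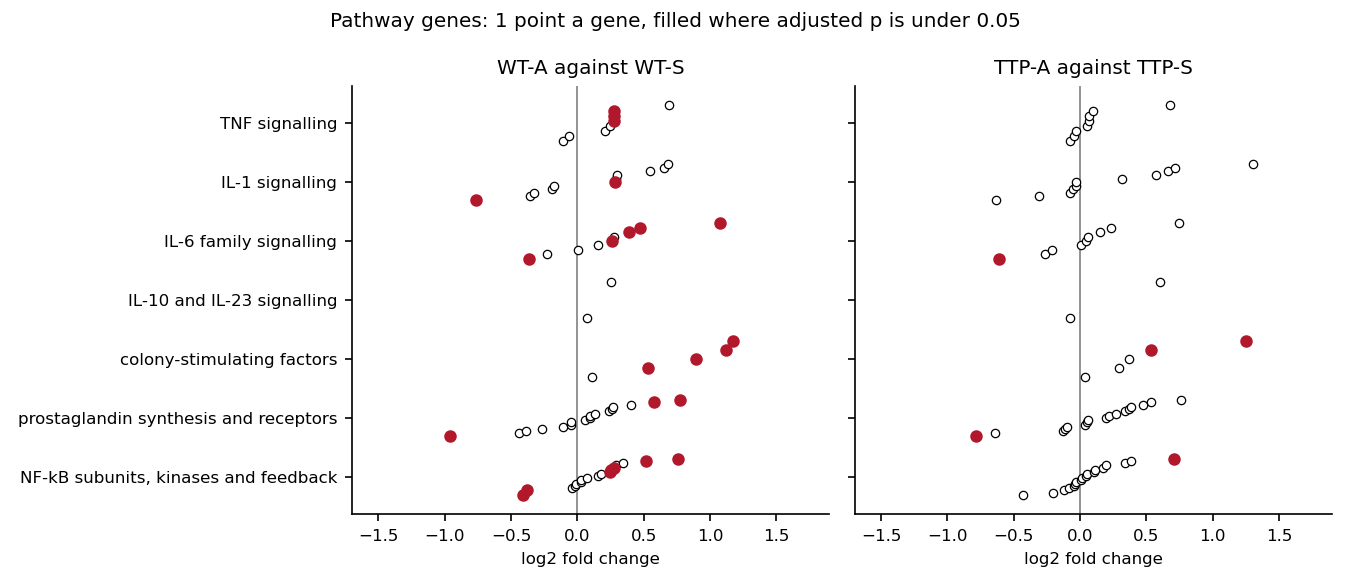
Log2 fold changes (horizontal axis) of 70 tested pathway genes in 7 lists (vertical axis), for WT-A against WT-S and TTP-A against TTP-S; 1 point a gene, filled where the edgeR adjusted p is under 0.05. The left panel has 24 filled points, 4 of them among the 5 genes of the colony-stimulating factor list, and the right panel has 5.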

How the data were processed

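The authors deposited 1 table of whole-number read counts per gene symbol. Per the submitters' processing notes, STAR 2.7.0f, featureCounts, Subread 1.6.4, DESeq2 and mm10 were used; the strand setting is not given in the sources used here. Libraries were TruSeq, per the labels' protocols. Counts without molecular identifiers are not independent molecules, so intervals cover counting error only.

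Counts were fitted as deposited with edgeR 4.0.16 (R 4.3.3): filterByExpr, which left 15385 of 24964 symbols and asks for about 10 reads (0.450 CPM) in 4 libraries, TMM scaling, and a quasi-likelihood model of 4 group means over 16 libraries. P-values were adjusted by Benjamini-Hochberg over all genes tested, and called means an adjusted p under 0.05. Ratios of summed reads have exact conditional binomial 95% intervals (SciPy 1.17.1). Alternatives were other scalings, filters and fits (DESeq2 1.42.0 included), a replicate block, 14 libraries and leaving out each library. The method was tested on simulated data.

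The members and lists were chosen with earlier results of these data known. All 10 members were described. Of the pathway lists, up to 12 called genes per comparison with the largest change and a mean of at least 1 CPM in the higher group could be named. Replicates within a group differed by more than sampling noise. UTR counts used GENCODE M21, and promoters were RefSeq's. A further UTR stretch is not reported here.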

Additional observations from a re-analysis of the deposited data

Results flagged for a closer look

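In 9 of 112 groups of 4 libraries, 1 library of a described gene lay far from the other 3; chance alone flags about 1 group in 20. Tnf was highest in WT-A 3, at 0.936 CPM (24 reads), beside 0.478 to 0.541 in the rest of the group. Il1b was highest in TTP-A 1, at 1.36 CPM beside 0.672 to 0.787. Il1rn was lowest in WT-S 2, at 1.27 CPM beside 1.64 to 1.68, and highest in TTP-S 1, at 5.27 CPM beside 2.22 to 2.56. TTP-S 1 was also the library of its group with the highest squamous sum, 466 CPM. Nfkbia was highest in TTP-A 4, at 36.0 CPM beside 30.9 to 31.2. Hpgd was highest in TTP-S 2, at 308 CPM beside 258 to 266. The other flags rest on 1 to 3 reads where the rest of the group had none: Il10 in TTP-S 3 (0.148 CPM, 3 reads), Csf2 in WT-S 3 (0.0880 CPM, 2 reads) and Csf2 in TTP-S 1 (0.0405 CPM, 1 read).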

How the results depend on the processing

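The number of the 10 genes called was 2 for WT-A against WT-S. It was 1 in a fit of those 2 groups alone and 1 with the squamous covariate, Il1rn being lost in both (edgeR adjusted p = 0.0690 and 0.160), and 1 to 2 when a library was left out. For TTP-A against TTP-S it was 0, but 1 by the DESeq2 Wald test and 0 to 1 with a library left out. For TTP-A against WT-A it was 1, but 0 with 14 libraries and 0 with those 2 groups alone, and 0 to 1 with a library left out. The cause was not tested. Il1rn in TTP-A against WT-A turned to 0.14 with the squamous covariate and ranged from -0.72 to 0.17 with a library left out. With a library left out, Nfkbia in TTP-A against WT-A ranged from -0.027 to 0.056, and the interaction from -0.011 to 0.39 for Il1b and from -0.073 to 0.057 for Tnfaip3. Replicate numbers do not pair the samples: deviations of same-numbered libraries correlated between -0.42 and 0.33. With a replicate block the genes of the set called numbered 2, 0, 0, 1 and 0 as before, and all genes called were 2853, 427, 5, 624 and 4.

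Over all genes, 2891 were called for WT-A against WT-S, 446 for TTP-A against TTP-S, 5 for TTP-S against WT-S, 796 for TTP-A against WT-A and 9 for the interaction. In that order the counts were moved over 1.5 times with 14 libraries (1617, 974, 65, 279 and 44), with DESeq2 (863, 98, 1574 and 250 for the second to the last), with only 2 groups (612, 1132, 42 and 1 for the pairwise ones) and with the squamous covariate (660, 2, 140 and 3 for all but the second). The third count was 2 with a laxer filter and 9 with the newer fit. With a library left out they ranged over 1252 to 4982, 60 to 944, 1 to 15, 90 to 3205 and 2 to 231. Depth limits Il6, Il10, Il23a, Csf2 and, in the S groups, Tnf.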

Other observations

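The interleukin 1 family receptor Il1rl1 and its ligand Il33, an alarmin of stromal and epithelial cells, were not called with 16 libraries and were called in the fit of 14 libraries. For TTP-A against TTP-S, Il33 had a log2 difference of 0.72 (edgeR adjusted p = 0.0960 with 16 libraries and 0.0311 with 14), and Il1rl1 one of 1.30 (0.0827 and 0.0494). Il18, of the same list, was lower there by -0.63 (0.0803 and 0.00364). Slco2a1, the transporter that takes up prostaglandins, was lower after adrenalectomy in both genotypes in the 14 libraries, by -0.72 in WT (edgeR adjusted p = 0.0252) and -0.64 in TTPΔARE mice (0.0215). With 16 libraries neither difference was called (0.0763 and 0.0542).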
